A study of Homo sapiens with 4 samples.

Results

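The 10 genes described here are long noncoding RNAs that host small nucleolar RNAs (snoRNAs), mostly in introns: GAS5, SNHG1, SNHG5, SNHG6, SNHG7, SNHG8, SNHG12, SNHG15, SNHG16 and ZFAS1. They were chosen by symbol, through the Ensembl identifier of each row, from the 63677 genes counted, and all 10 were among the 15116 genes with enough counts to be tested. RNA-seq was available for HCT116, 1 human colorectal cancer line, with 2 libraries from cells given an antisense oligonucleotide (ASO) against GAA repeats and 2 from cells given a control ASO. The anti-GAA ASO was designed to pair with RNAs that hold tandem GAA repeats and to direct RNase H against them. The labels give 48 h of transfection whereas the study's methods give a shorter time for ASOs. No untreated library was analysed here, so the anti-GAA ASO is compared below with the control ASO only. Differences between replicate numbers are named as such. The study's methods call the replicates duplicate experiments and do not say at which step they were separated, so p-values measure the spread between these libraries.

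A snoRNA host gene makes its snoRNAs from introns, which are trimmed after splicing, while the joined exons leave the nucleus as a spliced RNA with little coding capacity. C/D box snoRNAs guide ribose methylation and H/ACA box snoRNAs guide pseudouridylation, mostly of ribosomal RNA. Many of the host RNAs begin with a terminal oligopyrimidine (TOP) motif, as the mRNAs of ribosomal proteins do, and carry short open reading frames that end far upstream of later exon junctions. Ribosomes that stop there can trigger nonsense-mediated decay (NMD), so the level of such a spliced host RNA depends on both its synthesis and the translation-coupled decay of the finished RNA.

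The total count on genes was between 10538284 and 17894953 per library. Counts were scaled by TMM and are given as CPM, the count of a gene relative to the scaled library total. The line's epithelial identity was visible in its markers, with all 7 (EPCAM, KRT8, KRT18, KRT19, CDH1, CLDN4 and CLDN7) above 1 CPM and a summed level of 2729 to 3099 CPM, while 8 of 9 markers of blood, stromal, endothelial and liver cells were under 1 CPM in every library and the 9 together summed to 10.5 to 15.9 CPM. The 10 host RNAs held 0.348% and 0.276% of the counts in anti-GAA libraries 1 and 2 and 0.362% and 0.313% in control libraries 1 and 2. In bulk RNA, fewer cells with an RNA and less of that RNA per cell cannot be told apart.

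The members differ in architecture. In RefSeq, 37 snoRNA genes lie inside the 10 hosts, 35 of them in introns of the canonical transcript. SNORA9, the only snoRNA of SNHG15, lies in an exon of that transcript, and SNORA103 of GAS5 overlaps an exon. Of the 37, 28 carry C/D box names and 8 H/ACA box names. GAS5 holds 11, SNHG1 holds 9, SNHG12 holds 4, SNHG16 and ZFAS1 hold 3 each, SNHG5 and SNHG7 hold 2 each, and SNHG6, SNHG8 and SNHG15 hold 1 each. GAS5, SNHG1, SNHG5, SNHG6, SNHG16 and ZFAS1 are mainly or wholly C/D hosts, whereas SNHG7, SNHG8, SNHG12 and SNHG15 are mainly or wholly H/ACA hosts. The canonical transcripts of GAS5 and SNHG1 have 12 and 11 exons, and the others have 3 to 6, against a median of 2 over the tested lncRNAs.

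The bases at the start site are shown because a TOP motif, a C at the first base followed by an unbroken run of pyrimidines, is the feature that links these hosts to translation control. RefSeq start sites (GRCh38.p14) were at hand for 8 of the 10 members, with none for SNHG6 and SNHG15. Each line gives 10 bases before the start and 20 from it on the RNA's strand, and capitals mark the pyrimidine run that begins with the C at the start.
SNHG12 (chr1:28581854-28581883, minus strand): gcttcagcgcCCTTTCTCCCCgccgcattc
SNHG5 (chr6:85678714-85678743, minus strand): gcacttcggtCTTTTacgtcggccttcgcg
ZFAS1 (chr20:49278632-49278661, plus strand): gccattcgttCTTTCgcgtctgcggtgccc
SNHG7 (chr9:136728165-136728194, minus strand): ccttctcgtcCTCTgcgtgcgccggaggct
SNHG1 (chr11:62855866-62855895, minus strand): gagattcgttCTCatttttctactgctcgt
A C followed by a run to at least 4 pyrimidines in all began 4 of these 8 starts (SNHG5, SNHG7, SNHG12 and ZFAS1), against 1914 of 35116 RefSeq starts (5.45%) and 59 of 75 genes of ribosomal proteins and TOP translation factors with at least 1 such start. The run was 3 pyrimidines long in SNHG1 and 1 in SNHG8, and the RefSeq starts of GAS5 and SNHG16 began with another base. For GAS5, the canonical GENCODE transcript starts elsewhere and does open with such a run, again in capitals, here with its first 20 bases.
GAS5 (canonical transcript, bases 1 to 20): CTTTTCgaggtaggagtcga
A run of pyrimidines at an annotated start is a description of that start and was not measured in these cells.

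The members held no long GAA repeat, the target of the ASO, and neither did most tested genes in their transcripts. The longest unbroken GAA repeat, in any phase, was 5 to 8 nt in the 10 canonical transcripts and 6 to 8 nt over the whole gene bodies. Over all tested genes the medians were 7 nt and 8 nt. Thus 0 of 10 reached 9 nt in the transcript, where 19.8% of all tested genes and 5.22% of tested lncRNAs did. For 10 genes, 0 is near that lncRNA share. Over gene bodies 49.7% of all tested genes reached 9 nt. Among the canonical transcripts SNHG12 had the longest run, 8 nt, shown here in capitals with its flanks. Over gene bodies SNHG5 and SNHG16 also had 8 nt, and in the longest annotated transcripts SNHG12 had 6 nt while GAS5 and SNHG6 had 7 nt.
SNHG12 (canonical transcript, bases 1833 to 1862): gtgatcaataaAAGAAGAAtaaaaagacta
Over all tested genes with a transcript, the median log2 fold change was 0.03 for the 11824 with runs under 9 nt, −0.04 for the 2544 with 9 to 11 nt, −0.10 for the 284 with 12 to 14 nt and −0.40 for the 99 with at least 15 nt. Every member belonged to the class with the shortest runs.

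All 10 canonical transcripts had at least 1 exon junction more than 50 nt downstream of the stop of their first open reading frame. NMD can act on such an arrangement, but this measure alone does not mark its targets. The same held for 728 of 1328 tested lncRNAs (54.8%) and for 38.3% of 12178 tested protein-coding genes. The first reading frame had 3 codons in SNHG15, 5 in SNHG12, 12 in SNHG5 and 19 to 67 in the other 7. SNHG1 had 7 junctions past that distance, GAS5, SNHG5 and SNHG12 had 5 each, and the rest had 1 or 2. In SNHG12 and SNHG1 the canonical transcript and its first start codon begin upstream of the RefSeq start printed above. The first reading frame of each thus belongs to that longer form. With the longest annotated transcript in place of the canonical one, GAS5, SNHG12 and SNHG15 had 0 such junctions. SNHG1 then had 1, after a first reading frame of 5 codons, and SNHG5 had 2.

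The first comparison asked whether the spliced hosts stood at another level with the anti-GAA ASO than with the control ASO. By edgeR's quasi-likelihood test 0 of 10 members had an adjusted p under 0.05, as did 0% of all tested genes. At an unadjusted p under 0.05, 1 of 10 members was lower and 0 were higher, beside 3.46% and 1.02% of all tested genes (4.48% in either direction). DESeq2 also called 0 of 10 (background 0.0331%), with 1 lower at an unadjusted p under 0.05 (background 2.1%). The member in question was SNHG12 by both tools. The members' log2 fold changes ran from −0.80 to 0.50 with a median of −0.04, 5 below 0 and 5 above, beside a median of 0.01 over all tested genes. In 3 of 10 members the libraries of the 2 ASOs did not overlap, 2 lower and 1 higher with the anti-GAA ASO, and 32.4% of all tested genes were likewise without overlap (16.9% lower, 15.5% higher).

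**Figure D1:**
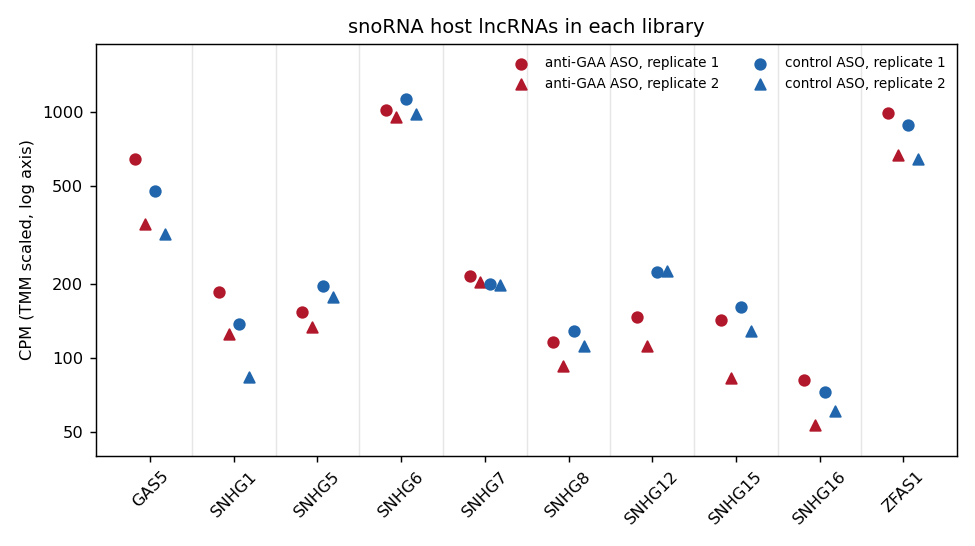
TMM-scaled CPM of each host in the 4 libraries, on a log axis, with colour for the ASO and marker shape for the replicate number. Both anti-GAA libraries lie below both control libraries for SNHG12 and SNHG5, both lie above for SNHG7, and the groups overlap for the other 7.

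SNHG12 (ENSG00000197989; chr1:28578538-28583132 on GRCh38, minus strand) hosts SNORA61, SNORA44 and SNORA16A, of the H/ACA box type, and SNORD99. It was at 147 and 112 CPM in anti-GAA libraries 1 and 2 and at 224 and 227 CPM in control libraries 1 and 2, that is 130 ± 25.3 against 226 ± 1.71 CPM (mean ± SD, n = 2 each). The groups did not overlap, and the control libraries lay close together while the anti-GAA libraries did not. The log2 fold change was −0.80 (SE 0.21, 95% interval −1.31 to −0.30), or 0.574-fold, with an adjusted p of 0.922 in edgeR. Between same-numbered libraries the log2 difference was −0.61 for pair 1 and −1.02 for pair 2. When the replicate number was a term of the model (a replicate block), SNHG12 was the 1 member called, with a log2 fold change of −0.82 (SE 0.15) and an adjusted p of 0.0134 in edgeR, where 1.71% of tested genes were called in either direction and 1.37% were called lower. With offsets for transcript length and GC content as well, 2 members were called, SNHG12 again and SNHG1, where 5.17% of tested genes were called. The labels do not say what the replicate number marks. Over all alternatives tried, SNHG12's adjusted p ranged from 0.000145 to 1.00.

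SNORD99, the C/D box snoRNA in the last intron of SNHG12, was the only snoRNA of the 10 hosts with a mean of at least 10 counts. It had 35 and 61 counts in anti-GAA libraries 1 and 2 and 43 and 41 in control libraries 1 and 2, or 3.54, 3.43, 2.80 and 2.42 CPM. Its log2 fold change was 0.41 (SE 0.35), with an adjusted p of 0.996 in edgeR. The estimates for host and snoRNA lay on opposite sides of 0, and the snoRNA's 95% interval reached from −0.42 to 1.25. Of the hosts' snoRNAs, 6 matched a row of the count table by identifier, and the other 5 of these had at most 5 counts in any library. Mature snoRNAs are shorter than the fragments such libraries usually keep, so these counts are not a measure of snoRNA output.

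TRNAU1AP, which encodes a factor for selenocysteine incorporation, lies on the opposite strand and shares 8 nt of exon with SNHG12. It was at 59.6 and 48.6 CPM with the anti-GAA ASO and at 49.1 and 49.3 CPM in the controls, with a log2 fold change of 0.14 (SE 0.21).

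The other mainly H/ACA hosts were SNHG7, SNHG8 and SNHG15. SNHG7 (chr9:136721366-136728184) was at 215 and 204 CPM in anti-GAA libraries 1 and 2 and at 201 and 198 CPM in the controls. SNHG8 (chr4:118278703-118285316) was at 116 and 92.8 CPM with the anti-GAA ASO and at 128 and 112 CPM in the controls. SNHG15 (chr7:44983019-44986961) was at 143 and 82.5 CPM with the anti-GAA ASO and at 161 and 128 CPM in the controls. SNHG7 was thus without overlap by a narrow margin, and anti-GAA library 1 was within the control range for SNHG8 and SNHG15. Log2 fold changes were 0.07 (SE 0.18) for SNHG7, −0.21 (SE 0.21) for SNHG8 and −0.36 (SE 0.29) for SNHG15, each with an adjusted p of 0.996 in edgeR. SNHG15 differed between pairs, with −0.17 in pair 1 and −0.64 in pair 2. Exons of SNHG7 overlap those of DIPK1B on the other strand by 539 nt and exons of SNHG8 overlap those of PRSS12 by 2487 nt. These partners had 29 to 66 and 116 to 309 counts per library. The sources do not say whether reads were counted by strand, and if they were not, reads from the shared exons cannot be told apart.

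Among the C/D box hosts, GAS5 (chr1:173858559-173868882), known for its accumulation in growth-arrested cells, was at 643 and 351 CPM in anti-GAA libraries 1 and 2 and at 480 and 319 CPM in control libraries 1 and 2. SNHG1 (chr11:62851978-62855953), the host of a cluster of snoRNAs, was at 186 and 125 CPM with the anti-GAA ASO and at 137 and 83.4 CPM in the controls. In both genes library 1 was above library 2 under each ASO and the groups overlapped, although each anti-GAA library exceeded the control library of its own number. The log2 fold change was 0.31 (SE 0.34, 95% interval −0.48 to 1.11) for GAS5 and 0.50 (SE 0.31, 95% interval −0.23 to 1.23) for SNHG1. Pair differences on the log2 scale were 0.42 and 0.13 for GAS5 and 0.44 and 0.59 for SNHG1.

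ZFAS1 (chr20:49278178-49299600), which starts beside ZNFX1 on the opposite strand, was at 993 and 670 CPM with the anti-GAA ASO and at 889 and 644 CPM in the controls. SNHG16 (chr17:76557727-76670985) was at 81.3 and 53.4 CPM with the anti-GAA ASO and at 72.3 and 60.7 CPM in the controls. For both, the 2 libraries of either ASO were further apart than the means of the ASOs. Log2 fold changes were 0.12 (SE 0.27) for ZFAS1 and 0.02 (SE 0.26) for SNHG16, and SNHG16 was the 1 member whose pairs had opposite signs (0.17 and −0.19).

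SNHG5 (chr6:85650491-85678932) was at 154 and 134 CPM with the anti-GAA ASO and at 196 and 176 CPM in the controls. SNHG6 was at 1027 and 954 CPM with the anti-GAA ASO and at 1130 and 989 CPM in the controls. SNHG5 did not overlap between the ASOs, whereas SNHG6 did. The log2 fold change of SNHG5 was −0.37 (SE 0.19, 95% interval −0.83 to 0.09), with an adjusted p of 0.996 in edgeR, and its pair differences of −0.35 and −0.39 were close to each other. SNHG6 had a log2 fold change of −0.10 (SE 0.19). Its exons overlap those of MCMDC2 on the other strand by 1488 nt, and MCMDC2 had 12 to 21 counts per library.

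By pair, 5 of 10 members were lower with the anti-GAA ASO in both pairs and 4 were higher in both, beside 30% and 31.8% of all tested genes. The members' median difference was −0.02 in pair 1 and −0.12 in pair 2 on the log2 scale. The hosts did not share 1 direction. With the ASO as the only term, the 95% interval of every member except SNHG12 included 0. With the replicate block, 4 of 10 members had an unadjusted p under 0.05 in edgeR. These were SNHG12, SNHG5 (−0.37, SE 0.14) and SNHG15 (−0.41, SE 0.15), all lower, and SNHG1 (0.51, SE 0.14), which was higher. Of all 15116 tested genes, 1466 were lower and 1037 higher at that threshold.

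The second comparison, added after the data had been seen, set libraries numbered 2 against libraries numbered 1, with the ASO as the other term of the model. Here 4 of 10 members passed an adjusted p of 0.05 in edgeR, all lower in libraries 2, beside 14.5% of all tested genes (7.52% lower and 6.98% higher). They were GAS5 (log2 difference −0.73, adjusted p 0.00628), SNHG1 (−0.64, adjusted p 0.00793), ZFAS1 (−0.52, adjusted p 0.0341) and SNHG15 (−0.56, adjusted p 0.0240). For GAS5 the difference was −0.59 between the control libraries and −0.87 between the anti-GAA libraries. In all, 9 of 10 members were lower in library 2 under both ASOs and 0 were higher, beside 33.8% and 35.7% of all tested genes. Some other lists leaned the same way. Called lower in libraries 2 were 3 of 13 other noncoding snoRNA hosts, 4 of 18 NMD factors and 3 of 12 NMD targets. In each of these lists 0 were called higher. Of 17 snoRNA-protein complex genes, 3 were called lower and 1 higher. Their median difference was −0.33 between control libraries and −0.31 between anti-GAA libraries, beside −0.22 and −0.48 for the members. Of 19 TOP translation factors 1 was called lower and 2 higher, near the shares of all tested genes. Their median difference was 0.10 between control libraries and 0.14 between anti-GAA libraries. Of 76 ribosomal protein genes, 5 were called lower and 2 higher, with medians of −0.28 and −0.05. Of 31 protein-coding snoRNA hosts, 1 was called lower and 0 higher, with medians of −0.14 and −0.01. The exception among the members was SNHG12, which was lower in library 2 with the anti-GAA ASO and not with the control ASO. The difference between replicate numbers was larger in size than that between ASOs in 7 of 10 members and in 59.4% of all tested genes. The summed level of the 10 hosts was 3706 and 2778 CPM in anti-GAA libraries 1 and 2 and 3619 and 2939 CPM in control libraries 1 and 2, so that it ordered the libraries by number and not by ASO. SNHG6, ZFAS1 and GAS5 had the highest levels of the members and weighed most in this sum. What the numbers stand for was not tested.

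The protein-coding genes that start on the other strand beside a member gave a local reference. SLC3A2, the heavy chain of an amino acid transporter, starts 82 nt from SNHG1 and was at 347 and 173 CPM in anti-GAA libraries 1 and 2 and at 291 and 151 CPM in the controls. ZNFX1, an RNA helicase that starts 216 nt from ZFAS1, was at 127 and 54.9 CPM with the anti-GAA ASO and at 77.7 and 58.8 CPM in the controls. As in their neighbours SNHG1 and ZFAS1, library 2 was the lower under both ASOs. Between replicate numbers SLC3A2 differed by −0.98 (adjusted p 0.000662 in edgeR) and ZNFX1 by −0.80 (adjusted p 0.00910 in edgeR). Between ASOs their log2 fold changes were 0.24 (SE 0.41) and 0.41 (SE 0.39), neither called.

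ZBTB37, a zinc finger gene, starts 93 nt from GAS5 and was at 6.77 and 6.24 CPM with the anti-GAA ASO and at 9.59 and 8.31 CPM in the controls. Its log2 fold change of −0.46 (SE 0.28) had the opposite sign to that of GAS5, and neither was called. For PRSS12 and ST6GALNAC2, which overlap SNHG8 and SNHG16 on the other strand, the log2 fold changes were −0.04 and −0.03. PRSS12 and ST6GALNAC2 differed between replicate numbers by 0.64 (adjusted p 0.0402 in edgeR) and 0.73 (adjusted p 0.0351 in edgeR). Their lncRNA partners had the opposite sign and were not called. SNHG8 was at −0.26 (adjusted p 0.221 in edgeR) and SNHG16 at −0.43 (adjusted p 0.0644 in edgeR). MCMDC2 and DIPK1B had log2 fold changes of 0.67 (SE 0.48) and 0.26 (SE 0.36).

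Other snoRNA hosts were next. Of 16 other noncoding hosts listed, 13 were tested and 0 were called by edgeR. Among these, 2 had an unadjusted p under 0.05, both higher with the anti-GAA ASO (1.02% of all tested genes were). Their median log2 fold change was 0.17, beside −0.04 for the 10 members, but 0.077 with scaling to total counts, 0.0036 without control library 2 and 0.31 without control library 1. SNHG30 was at 24.3 ± 2.36 CPM with the anti-GAA ASO and at 13.8 ± 1.69 CPM with the control ASO (mean ± SD, n = 2 each), a log2 fold change of 0.81 (SE 0.23, adjusted p 0.922 in edgeR). SNHG19 was at 120 and 202 CPM in the anti-GAA libraries and 89.9 and 87.9 CPM in the controls, a log2 fold change of 0.86 (SE 0.27, adjusted p 0.996 in edgeR). Neither overlapped between the ASOs, and both lay on the other side of 0 from SNHG12. EPB41L4A-AS1 did not overlap either and was lower, at 142 and 89.5 CPM in the anti-GAA libraries and 157 and 152 CPM in the controls. Of all tested genes, 32.4% were likewise without overlap. SNHG32 overlapped between the ASOs. EPB41L4A-AS1 and SNHG32 had log2 fold changes of −0.42 (SE 0.26) and −0.34 (SE 0.24). The 31 protein-coding hosts, which splice their snoRNAs out of translated mRNAs, had a median of 0.09 (−0.0061 with total counts and 0.0035 without control library 2). Of these, 1 had an unadjusted p under 0.05 (4.48% of all tested genes did). Among them EIF4A2, a translation initiation helicase, had a log2 fold change of 0.53 (SE 0.19), RPL13 0.41 (SE 0.19), EEF1B2 −0.22 (SE 0.19) and EIF4G2 −0.26 (SE 0.21).

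Ribosomal protein genes and translation factors are the classical TOP mRNAs. The 76 cytosolic ribosomal protein genes tested had a median of 0.11, with 57 above 0 (7802 of all 15116 tested genes were), and the 19 TOP translation factors had a median of 0.11, beside 0.01 over all tested genes. The ribosomal median was 0.0023 without control library 2, 0.25 without control library 1 and 0.02 with total counts. That of the TOP factors was −0.0093 without anti-GAA library 2, 0.056 without control library 1, 0.17 without anti-GAA library 1 and 0.028 with total counts. In either list 0 genes were called and 0 had an unadjusted p under 0.05. RPL12 (log2 fold change 0.45, SE 0.19) and NACA, a nascent chain chaperone subunit (0.38, SE 0.20), were above 0, and RPL23A (−0.27, SE 0.19) and FAU, which encodes a ribosomal protein fusion (−0.38, SE 0.25), were on the other side. RPL17, at 0.674 to 1.96 CPM, and EEF1A1, at 82.8 to 135 CPM, were far lower than such genes usually are. Their log2 fold changes were −0.87 (SE 0.54) and 0.32 (SE 0.24). Ribosomal protein genes and EEF1A1 have many near-identical pseudogene copies, and values for genes of these lists are uncertain, since how reads matching several places were counted is not given in the sources used here.

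Proteins that act on the hosts or their snoRNAs were tested as well. Of 17 genes for snoRNA-protein complexes and their assembly, 0 were called and 0 had an unadjusted p under 0.05, with a median of 0.06 that turned to −0.042 with total counts, −0.027 without anti-GAA library 1 and −0.065 without control library 2, and was 0.11 without anti-GAA library 2 and 0.16 without control library 1. FBL, the C/D box methyltransferase, had a log2 fold change of 0.29 (SE 0.26), NOP10 of the H/ACA box complex 0.22 (SE 0.24), NOP58 of the C/D box complex −0.45 (SE 0.24) and TCOF1, a nucleolar factor in ribosomal RNA synthesis, −0.51 (SE 0.34). Of 18 NMD factors, 0 were called. At an unadjusted p under 0.05, 2 were lower and 0 higher, beside 3.46% and 1.02% of all tested genes. The median of the NMD factors was −0.08. That median turned to 0.012 with length and GC offsets (0.008 with the replicate block as well), 0.085 without anti-GAA library 2 and 0.0091 without control library 1, and was −0.27 without anti-GAA library 1, −0.20 without control library 2 and −0.18 with total counts. UPF2, which bridges the exon junction complex and UPF1, was at 41.5 and 22.9 CPM in the anti-GAA libraries and 58.0 and 58.3 CPM in the controls. Its log2 fold change was −0.86 (SE 0.30, adjusted p 0.996 in edgeR), and like SNHG12 it had control libraries that lay close together and anti-GAA libraries that did not. NBAS had a log2 fold change of −0.71 (SE 0.25), and the exon junction components EIF4A3 and CASC3 had 0.36 (SE 0.22) and 0.32 (SE 0.21).

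Of 12 known NMD targets, 11 mRNAs and the transcribed pseudogene RP9P, 0 were called. At an unadjusted p under 0.05, 2 were lower and 1 was higher, beside 3.46% and 1.02% of all tested genes. The median of the 12 was −0.23. It turned to 0.11 without anti-GAA library 2 and 0.082 without control library 1, and was −0.40 without anti-GAA library 1. ATF4, a stress transcription factor with upstream reading frames, was at 450 and 345 CPM in the anti-GAA libraries and 291 and 251 CPM in the controls, a log2 fold change of 0.55 (SE 0.22). GADD45A, a stress-response gene, was at 303 and 351 CPM in the anti-GAA libraries and 406 and 539 CPM in the controls, a log2 fold change of −0.53 (SE 0.22). DDIT3, a target of ATF4, had 0.50 (SE 0.23). MAP3K14, at a low level of 0.707 to 2.83 CPM, had −1.18 (SE 0.48). These RNAs lay on both sides of 0, as the noncoding hosts did.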

How the data were processed

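Per the labels, libraries were aligned with STAR to hg19 and reads counted per gene with featureCounts. The authors deposited these raw counts without normalization. Which Ensembl release was used, whether reads were counted by strand and how reads matching several places were handled is not given in the sources used here. The labels name a total RNA kit and the study's methods an mRNA kit. Here, genes kept by filterByExpr were TMM normalized and tested with edgeR 4.0.16 (quasi-likelihood, ASO as the only term, Benjamini-Hochberg over 15116 genes, threshold 0.05) in R 4.3.3, after a check on simulated data. DESeq2 1.42.0 was an alternative. Pair values are differences in log2 CPM (prior count 2). Annotation came from GENCODE 44 and RefSeq on GRCh38 and was joined by Ensembl identifier (52181 of 63677 genes), with no position carried over from hg19. The members and lists were chosen with earlier results of these data known. Named were all members, their snoRNAs with a mean of at least 10 counts, neighbours (overlapping, or starting within 1000 nt on the other strand) averaging 1 CPM or more, and the 2 genes with the smallest p in each direction of each list. Some neighbours that meet this rule are not reported here. The replicate comparison was added after seeing the data. Same-numbered libraries deviated together from their group means (correlation 0.564), over only 2 pairs.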

Additional observations from a re-analysis of the deposited data

How the results depend on the processing

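Of all tested genes, DESeq2 called 5, no filter on low counts 116, the replicate block 258, the block with length and GC offsets 763 and leaving out 1 library 0 to 18, against 0 in the comparison reported. Of the members, the block called 1 (SNHG12), the block with offsets 2 (SNHG1 and SNHG12, background 5.17%) and every other alternative 0. In the comparison lists, the block called SNHG30, SNHG19 and UPF2 (adjusted p 0.0272, 0.0308 and 0.0259 in edgeR) and 1 NMD target. With DESeq2 in place of edgeR, 3 of 10 members and 810 genes differed between replicate numbers, against 4 and 2191.

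The members' median log2 fold change was −0.14 with scaling to total counts, which moved the median of all genes to −0.08, and −0.25 to 0.049 without 1 library. SNHG12 stayed below 0 in all 12 alternatives (−0.61 to −1.01 without 1 library), as did SNHG5, SNHG6, SNHG8 and SNHG15, and SNHG1 stayed above 0. Their sizes moved: without 1 library SNHG15 ran from −0.81 to −0.016, SNHG8 from −0.37 to −0.049, SNHG6 from −0.18 to −0.007, SNHG5 from −0.46 to −0.27 and SNHG1 from 0.19 to 0.89. SNHG16 was at −0.017 with length and GC offsets, −0.0087 with the block, −0.045 with both, −0.083 with total counts and −0.31 to 0.29 without 1 library. SNHG7 was at −0.024 with total counts. Without anti-GAA library 1, GAS5 was at −0.18 and ZFAS1 at −0.19, and without control library 2 ZFAS1 was at −0.088. Over the libraries left out, GAS5 ran from −0.18 to 0.69 and ZFAS1 from −0.19 to 0.38. The causes were not tested. A left-out library leaves 1 library in its group, assumed to vary like the others. With 2 libraries per group, most members' intervals spanned more than their estimates.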
